A study of Mus musculus with 10 samples.

Results

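Chromatin accessibility was described here at 10 genes that define endothelial cells (*Pecam1*, *Cdh5*, *Kdr*, *Tie1*, *Tek*, *Emcn*, *Erg*, *Fli1*, *Sox17* and *Sox18*) in mouse heart cells sorted as negative for CD31, the endothelial surface protein that *Pecam1* itself encodes. The members were the ATAC-seq summits lying inside these genes or within 25 kb of them on mm10, and a promoter was the stretch within 1 kb of an annotated start of a coding transcript. The 10 genes, of 21853 protein-coding genes in all, held between 90 and 137 summits in each of 9 peak lists, out of 94909 to 142743 summits per list. Merged across lists, these summits gave 171 elements, each reaching 250 bp to both sides of a summit, out of 184764 in the genome, and 152 of the 171, called distal, had their centre more than 1 kb from any start.

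The lists came from 10 samples in 3 groups. Every embryo was C57BL/6J and carried Rosa26tdTomato together with Wt1CreERT2/+, and tamoxifen at E9.5 marked *Wt1*-expressing cells and their later progeny with tdTomato, so cells that did not express *Wt1* around that time, and did not descend from one that did, carried no mark. The epicardium was sorted as CD31-tdTomato+PDPN+ cells at E11.5 (3 libraries of 6 pooled hearts each) and at E17.5 (3 libraries of 4 pooled hearts each). Epicardium-derived cells (EPDCs), the mesenchymal progeny of the epicardium, were sorted as CD31-tdTomato+PDPN- cells from E12.5 hearts (sample 1, number of hearts not given in the labels) and from E13.5 hearts (samples 1 and 2, pools of 4 to 13 hearts), and the technical replicates of E13.5 sample 2 shared 1 list and were counted as 1 library. The labels name the replicates as independent pools of hearts, so the spread between libraries was a spread between pools.

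Endothelial cells line the blood vessels and the inner surface of the heart, and carry CD31 on their surface, whereas the epicardium is the mesothelial layer on the outside of the heart. Endothelial identity rests on receptors for vascular growth factors (the VEGF receptor encoded by *Kdr*, the angiopoietin receptor encoded by *Tek* and its relative *Tie1*), on surface proteins of the cell junction and cell coat (*Pecam1*, *Cdh5*, *Emcn*) and on transcription factors of the ETS family (*Erg*, *Fli1*) and the SOX family (*Sox17*, *Sox18*). In ATAC-seq a transposase cuts open chromatin, so a summit marks accessible DNA, which is no measure of transcription.

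Promoter sequences are shown first, because the called and the uncalled starts differed in part in base composition. They were taken from a table of RefSeq promoters (GRCm38.p6), in which 5 of the 10 genes were matched (*Kdr*, *Tek*, *Tie1*, *Emcn* and *Erg*), and up to 250 bases before a start are printed 5′ to 3′ with each CG dinucleotide in capitals, for both the upstream and the principal start of *Erg*. *Tie1* is not printed, since most of its entry lay inside the annotated exon. A summit was called within 1 kb of the *Kdr*, upstream *Erg* and *Tek* starts in every library and of the principal *Erg* and *Emcn* starts in none. The summit itself lay inside the printed stretch in 3 of 9 libraries at *Kdr*, in 2 of 9 at *Tek* and in 0 at *Erg*, and otherwise within 1 kb of the start.
Kdr, chr5:75978459-75978705, minus strand: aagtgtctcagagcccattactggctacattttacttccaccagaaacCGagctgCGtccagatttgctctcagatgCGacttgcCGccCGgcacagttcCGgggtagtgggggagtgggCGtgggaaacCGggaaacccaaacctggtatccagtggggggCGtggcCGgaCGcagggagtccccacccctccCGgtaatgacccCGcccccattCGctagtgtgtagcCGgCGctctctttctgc
Erg, upstream start, chr16:95586594-95586843, minus strand: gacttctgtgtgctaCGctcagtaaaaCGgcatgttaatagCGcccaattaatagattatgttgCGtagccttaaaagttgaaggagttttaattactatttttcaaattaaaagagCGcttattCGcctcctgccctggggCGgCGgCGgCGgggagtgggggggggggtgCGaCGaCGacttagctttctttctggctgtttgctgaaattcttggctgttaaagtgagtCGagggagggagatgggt
Erg, principal start, chr16:95530366-95530615, minus strand: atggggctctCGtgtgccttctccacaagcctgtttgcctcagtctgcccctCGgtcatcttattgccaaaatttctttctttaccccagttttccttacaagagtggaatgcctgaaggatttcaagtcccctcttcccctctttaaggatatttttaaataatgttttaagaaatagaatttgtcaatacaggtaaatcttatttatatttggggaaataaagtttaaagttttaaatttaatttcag
Tek, chr4:94739039-94739288, plus strand: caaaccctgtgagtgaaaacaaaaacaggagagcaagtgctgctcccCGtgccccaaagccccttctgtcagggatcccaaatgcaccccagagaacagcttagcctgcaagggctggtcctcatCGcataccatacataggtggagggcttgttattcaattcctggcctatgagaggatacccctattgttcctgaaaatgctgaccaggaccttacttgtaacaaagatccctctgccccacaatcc
Emcn, chr3:137340828-137341066, plus strand: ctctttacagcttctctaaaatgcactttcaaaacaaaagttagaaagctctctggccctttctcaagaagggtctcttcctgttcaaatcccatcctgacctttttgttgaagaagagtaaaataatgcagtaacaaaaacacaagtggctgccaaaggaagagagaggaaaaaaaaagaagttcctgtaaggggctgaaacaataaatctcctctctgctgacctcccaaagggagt
The *Kdr* stretch of 247 bases held 16 CG dinucleotides and the upstream *Erg* stretch of 250 bases held 14. The principal *Erg* stretch and the *Tek* stretch, of 250 bases each, held 2 apiece, and the *Emcn* stretch of 239 bases held 0.

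At promoters, the endothelial genes fell into a higher-ranking, a lower-ranking and a largely uncalled group. Every value below is the rank of a promoter's strongest summit among all summits of its list, by the −log10 p of the peak caller, as a percentile from 0 to 100, and 0 stands for no summit called. An uncalled promoter lay below the caller's threshold and was not shown to be closed. Where local background equalled genome background, the fewest fragments called at a summit were between 9 and 24 depending on the library. More were required where local background was higher. *Kdr*, *Tek* and *Erg* ranked between 75.0 and 93.2 in all 9 libraries, *Fli1*, *Sox17* and *Sox18* ranked between 15.6 and 72.5, and *Cdh5*, *Tie1* and *Emcn* were at 0 throughout. The same 6 of 10 genes had a promoter called throughout the E11.5 libraries, the E17.5 libraries and the EPDC libraries, whereas 67.4%, 65.5% and 67.4% of all protein-coding genes did. Of all protein-coding genes 63.8% were called in all 9 libraries and 27.3% in none, beside 6 and 3 of the 10 endothelial genes.

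**Figure D1:**
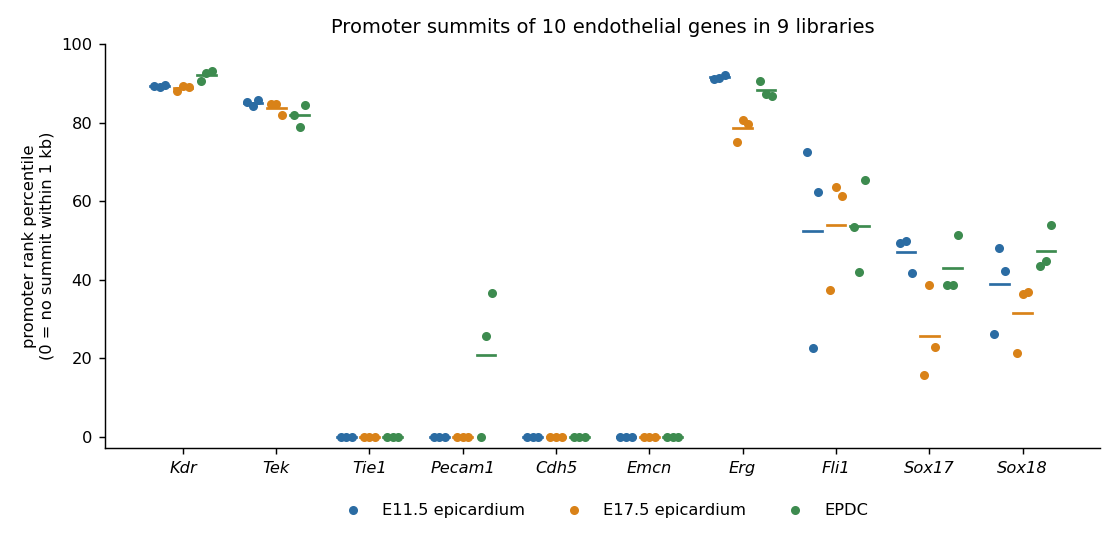
Promoter accessibility of the 10 endothelial genes in each library, as the rank percentile of the strongest promoter summit within its own list (vertical axis, 0 to 100, with 0 for no summit called). Points are single libraries, coloured by group, and bars are means of 3 libraries. *Kdr*, *Tek* and *Erg* sit between 75.0 and 93.2 in all libraries, and *Cdh5*, *Tie1* and *Emcn* lie at 0.

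Among the receptors, *Kdr* (ENSMUSG00000062960, chr5:75932827-75978458, minus strand), the main receptor for VEGF signalling, had the highest promoter rank of the 10 genes on average over the 9 libraries. The *Kdr* promoter ranked at 89.3, 89.1 and 89.6 in E11.5 epicardium, at 88.1, 89.2 and 88.9 in E17.5 epicardium and at 90.7, 92.7 and 93.2 in EPDCs. All 3 EPDC libraries lay above all 6 epicardial libraries. At the summit, 116 to 572 fragments overlapped, which was 36.8 to 58.7 times the genome background of the respective library. *Tek* (ENSMUSG00000006386, chr4:94739289-94874976, plus strand), whose product TIE2 binds angiopoietins, was called in every library at 85.3, 84.2 and 85.8 in E11.5 epicardium, at 84.7, 84.6 and 81.9 in E17.5 epicardium and at 82.0, 78.9 and 84.5 in EPDCs. These 3 groups of *Tek* values overlapped. *Tie1* (ENSMUSG00000033191, chr4:118471191-118490061, minus strand), which encodes a receptor that pairs with TIE2, had no promoter summit in any list.

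The genes for endothelial surface proteins had no promoter called in most or all libraries. *Cdh5* (ENSMUSG00000031871, chr8:104101625-104144511, plus strand), which encodes the junction protein VE-cadherin, and *Emcn* (ENSMUSG00000054690, chr3:137341067-137432185, plus strand), which encodes the mucin-like protein endomucin, were uncalled at every annotated start in all 9 libraries. *Pecam1* (ENSMUSG00000020717, chr11:106654217-106750628, minus strand) was uncalled in the 6 epicardial libraries and in EPDC E12.5 sample 1, and ranked at 25.5 in EPDC E13.5 sample 1 and at 36.7 in E13.5 sample 2. Both of these *Pecam1* summits lay close to the 1 kb limit, at 976 and 990 bp downstream of one of its 6 annotated starts. The element they belonged to, 1.4 kb downstream of the principal *Pecam1* start, was counted as distal by its centre and was called in all 9 libraries at 75.6, 73.7 and 67.5 in E11.5 epicardium, at 44.1, 39.99 and 44.98 in E17.5 epicardium and at 15.8, 25.5 and 36.7 in EPDCs. Read as an element, the same site thus ranked lower in every EPDC library than in every epicardial library (mean difference -31.6, exact permutation p = 0.0238, adjusted p = 0.132). Cells were gated against the *Pecam1* product in all 3 populations, and the part of this gate in the *Pecam1* values was not tested.

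Among the transcription factor genes, *Erg* (ENSMUSG00000040732, chr16:95359169-95586593, minus strand), an ETS factor, ranked at 91.0, 91.3 and 92.1 in E11.5 epicardium, at 75.0, 80.7 and 79.7 in E17.5 epicardium and at 90.5, 87.4 and 86.8 in EPDCs. The E17.5 libraries lay below all others. Its signal came from a single one of its 6 annotated starts, the most upstream at chr16:95586593, with the summit 872 to 953 bp downstream of it, while the principal start at chr16:95530365 and the other 4 were uncalled in all libraries. *Fli1* (ENSMUSG00000016087, chr9:32422204-32542861, minus strand), the other ETS factor, ranked at 72.5, 22.5 and 62.2 in E11.5 epicardium, at 37.4, 63.5 and 61.2 in E17.5 epicardium and at 53.3, 41.9 and 65.4 in EPDCs. These *Fli1* values mix sites, because its main summit lay near the 1 kb limit and the 22.5, the 37.4 and the 41.9 belong to weaker summits closer to a start. Read as an element, the main *Fli1* site at +1.0 kb ranked at 72.5, 75.0 and 71.4 in E11.5 epicardium, at 49.5, 70.5 and 61.2 in E17.5 epicardium and at 56.5, 58.6 and 72.9 in EPDCs, so that all E11.5 libraries lay above all E17.5 libraries. *Sox17* (ENSMUSG00000025902, chr1:4490931-4497354, minus strand), a factor of arterial endothelium, ranked at 49.4, 49.7 and 41.6 in E11.5 epicardium, at 15.6, 38.5 and 22.9 in E17.5 epicardium and at 38.6, 38.7 and 51.4 in EPDCs. Its 3 E17.5 values lay below every other *Sox17* value, the highest of them, 38.5, by little. The 41.6, the 38.6 and the 51.4 came from a site at +3.0 kb and the others from a site at -1.0 kb, and read as an element the latter overlapped between stages (49.4, 49.7 and 35.1 at E11.5). *Sox18* (ENSMUSG00000046470, chr2:181669836-181671640, minus strand), a factor of vascular and lymphatic endothelium, ranked at 26.2, 48.0 and 42.1 in E11.5 epicardium, at 21.3, 36.4 and 36.9 in E17.5 epicardium and at 43.4, 44.8 and 53.9 in EPDCs. The *Sox18* groups overlapped between the epicardial stages, and 1 E11.5 library (48.0) lay inside the EPDC range. These weak promoters rested on fewer fragments, 14 to 128 at *Sox17* and 21 to 116 at *Sox18*, against 50 to 305 at *Erg*.

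The 6 genes called in all libraries were not those of one functional class, but they did separate in part by base composition. A start was named CpG-rich where the 500 bp on each side had an observed over expected CpG ratio above 0.6 and a GC content above 55%. The 4 CpG-rich genes, *Fli1* (ratio 0.656), *Kdr* (0.665), *Sox17* (0.677) and *Sox18* (0.770), were all called in all 9 libraries. Of the 6 genes that were not CpG-rich, *Tek* and *Erg* were called in all 9 and *Cdh5*, *Tie1* and *Emcn* in none. The called *Erg* start had a ratio of 0.449, above the 0.187 to 0.352 of its 5 uncalled starts, whereas the called *Tek* promoter, at 0.297 to 0.317, overlapped in ratio with the uncalled *Emcn* starts, at 0.292 to 0.334. The *Erg* summits themselves lay 872 to 953 bp downstream of that start, outside the 500 bp over which the ratio was taken. Among all protein-coding genes 96.2% of the 9743 with a CpG-rich start and 37.8% of the other 12110 were called in all 9 libraries, and 0.298% and 49.1% in none. Where called in all 9 libraries, the median percentile was 93.5 for CpG-rich genes and 88.0 for the others, and all 6 called endothelial genes had means below the median of their class, *Kdr* (90.1), *Erg* (86.1) and *Tek* (83.6) by less than *Fli1* (53.3), *Sox18* (39.2) and *Sox17* (38.5).

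**Figure D2:**
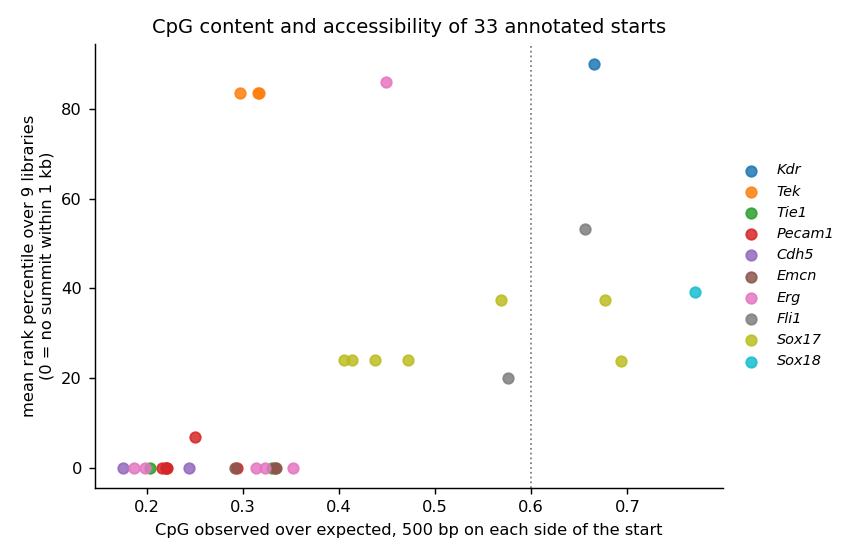
Observed over expected CpG ratio of the 1 kb around each of the 33 annotated starts of the endothelial genes (horizontal axis) against the mean promoter percentile over 9 libraries (vertical axis, 0 for no summit). Each point is 1 start, and the dotted line is the ratio of 0.6 used for CpG-rich starts. The called *Tek* and *Erg* starts lie left of the line, beside starts of *Cdh5*, *Tie1* and *Emcn* at 0.

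Between the epicardial stages, the promoters of 2 of the 7 genes called at least once ranked lower at E17.5 than at E11.5 in all libraries, and 0 ranked higher. Of 15879 promoters of all genes called at least once, 25.6% were lower and 10.8% higher by the same criterion that the 3 libraries of one stage all lay below or above the 3 of the other. The *Erg* promoter was at 91.5 ± 0.60 (SD, n = 3 at each stage here and below) at E11.5 and at 78.5 ± 3.05 at E17.5, a difference of -13.0 percentile points, and *Sox17* was at 46.9 ± 4.61 and 25.7 ± 11.7, a difference of -21.2 (exact permutation p = 0.10 for each, which is the smallest that 3 libraries against 3 allow, adjusted p = 0.274). *Kdr* (89.3 ± 0.24 and 88.7 ± 0.58), *Tek* (85.1 ± 0.79 and 83.8 ± 1.58), *Fli1* (52.4 ± 26.4 and 54.0 ± 14.5) and *Sox18* (38.8 ± 11.3 and 31.5 ± 8.82) overlapped between stages, and *Pecam1* was uncalled at both. For *Fli1* this rests on the mixed sites described above: the element at +1.0 kb was at 73.0 ± 1.85 and 60.4 ± 10.6, without overlap. The call at *Sox17* rests on mixed sites too, and its element upstream of the principal start overlapped between stages, as given above. Over the 6 genes called in all 6 libraries the median difference was -4.29, beside -0.44 over the 14164 such promoters of all genes. These medians come from unlike rank levels, since all 6 genes had means below the median of their CpG class. The part of rank level in the difference was not tested. With summits ranked by fold enrichment the stages overlapped at both genes (difference -3.08 for *Erg* and -3.24 for *Sox17*). With an equal number of top summits per list they overlapped at *Sox17* (-10.2). On the scale of fragments over genome background *Kdr* (0.49, log2) and *Tek* (0.50) were higher at E17.5 without overlap, where the median over all promoters was 0.52 higher.

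In EPDCs, 1 of the 7 promoters, *Kdr*, ranked above all epicardial libraries and 0 ranked below, where 6.65% of all 15879 promoters were higher and 9.79% lower. The *Kdr* promoter was at 92.2 ± 1.34 in EPDCs, 3.16 percentile points above the mean of the 6 epicardial libraries, with an exact permutation p of 0.012, the smallest that 3 libraries against 6 allow, and an adjusted p of 0.0904. The EPDC values of *Tek* (81.8 ± 2.82, difference -2.64, exact permutation p = 0.0595), *Erg* (88.2 ± 1.97, difference 3.22, p = 0.452), *Fli1* (53.5 ± 11.7, difference 0.31, p = 0.988), *Sox17* (42.9 ± 7.33, difference 6.62, p = 0.464) and *Sox18* (47.4 ± 5.71, difference 12.2, p = 0.107) overlapped with those of the epicardium. The *Pecam1* promoter value, above 0 in 2 EPDC libraries alone, rests on the 1 kb limit, and the whole element at +1.4 kb ranked lower in EPDCs, as given above. *Erg*, *Sox17* and *Sox18* were in every EPDC library above all 3 E17.5 libraries, and *Erg* in every EPDC library below all 3 E11.5 libraries. No promoter of the 10 genes passed an adjusted p of 0.05 in either comparison. On the scale of fragments at the summit over genome background, *Kdr* was 0.11 (log2) higher in EPDCs and the groups overlapped. Population, stage and the preparation of the EPDC lists cannot be told apart in this comparison, and both comparisons share the 6 epicardial libraries. In bulk samples fewer cells with an open site and less access per cell cannot be told apart either.

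Away from promoters, accessible elements were found around all 10 endothelial genes, including those with uncalled promoters. *Fli1* had 41 elements, *Pecam1* 32, *Erg* 22, *Tek* 21, *Kdr* 18, *Sox18* 10, *Cdh5* 9, *Tie1* 7, *Emcn* 6 and *Sox17* 5, over windows totalling 1.29 Mb. Of the 171 elements 14 lay at the gene's own promoter and 5 at the promoter of a neighbour, and distances below are in kb from the principal start in the direction of transcription. In all 3 libraries of a group, 86 elements (50.3%) were called in E11.5 epicardium, 68 (39.8%) in E17.5 epicardium and 78 (45.6%) in EPDCs, beside 49.5%, 39.6% and 39.6% of all elements of the genome. All 9 libraries called 43 of the 171 elements and 35 of the 152 distal ones, and 33 of the 171 were called in a single list, beside 24.7%, 19.3% and 16.6% of such elements of the genome.

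**Figure D3:**
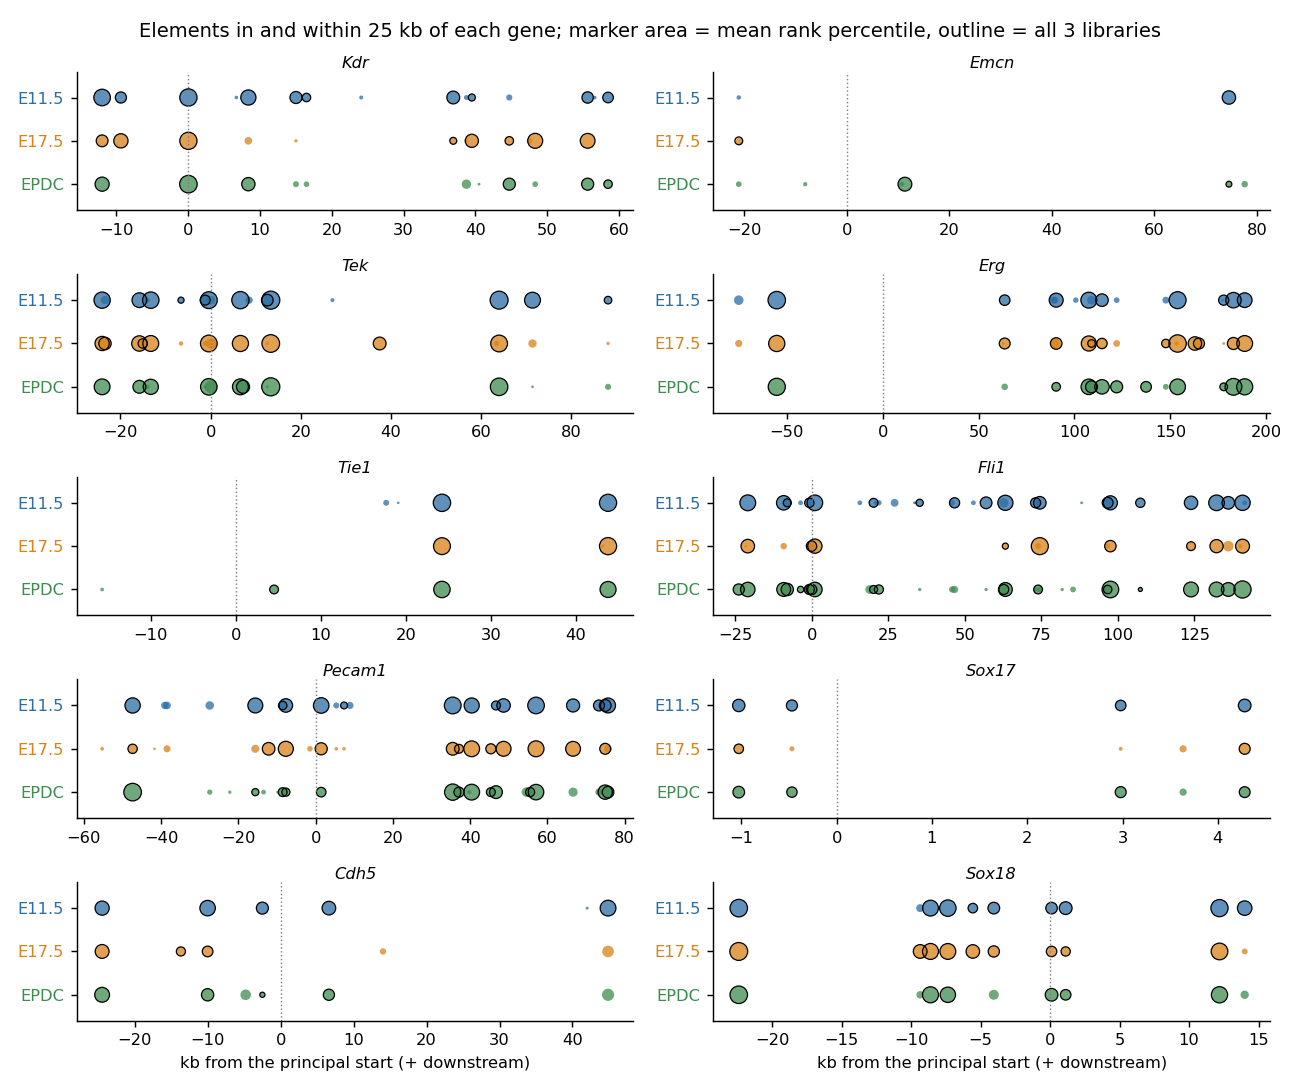
Elements around the 10 endothelial genes, placed by their distance in kb from the gene's principal start in the direction of transcription (horizontal axis), with a panel per gene and a row per group. Marker area grows with the mean percentile of the 3 libraries of a group, and an outline marks elements called in all 3. *Tie1* and *Emcn* have 7 and 6 elements, and *Fli1* has 41.

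The *Tek* locus carried the strongest element of all. In the first *Tek* intron, of 41.1 kb, 7 elements were called, and the one at +13.4 kb (chr4:94752415-94752915) ranked at 98.0, 98.0 and 98.6 in E11.5 epicardium, at 93.2, 94.5 and 93.7 in E17.5 epicardium and at 98.99, 98.4 and 98.2 in EPDCs. The element thus stood above the *Tek* promoter in every library, and its E17.5 values were the lowest. A further intronic element at +64.1 kb (chr4:94803101-94803601) ranked at 96.9, 97.8 and 95.9 in E11.5 epicardium, at 84.5, 86.7 and 81.3 in E17.5 epicardium and at 92.5, 90.7 and 92.9 in EPDCs. Its 3 groups did not overlap with one another. *Tek* had 6 distal elements in all 9 libraries, and the means of the others over the 9 libraries were 81.1 at +6.6 kb, 75.0 at -13.3 kb, 71.2 at -24.1 kb and 61.2 at -15.8 kb.

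The other receptor genes had fewer elements in all 9 libraries. *Kdr* had no element in its first intron of 3.61 kb, and its 2 distal elements present in all 9 libraries, at -11.9 kb and +55.6 kb, had means of 60.8 and 48.3. For *Tie1*, nothing was called in the first intron of 2.96 kb either, and its strongest element lay downstream of the gene, at +24.3 kb (chr4:118465550-118466050). This *Tie1* element, called in all 9 libraries, ranked at 90.3 ± 2.03 in E11.5 epicardium, 85.2 ± 1.89 in E17.5 epicardium and 80.4 ± 3.10 in EPDCs (n = 3 each). Which gene such distant elements serve was not tested.

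Around the surface protein genes, *Pecam1* had 7 distal elements in all 9 libraries, *Cdh5* 2 and *Emcn* 0. The strongest of *Pecam1*, at +57.0 kb near the 3′ end of the gene (chr11:106657962-106658462), ranked at 82.2 ± 1.89 in E11.5 epicardium, 75.5 ± 1.85 in E17.5 epicardium and 71.8 ± 0.72 in EPDCs (n = 3 each). The element of *Cdh5* at -24.5 kb (chr8:104076886-104077386) ranked at 65.0, 55.7 and 57.6 in E11.5 epicardium, at 60.1, 56.6 and 54.2 in E17.5 epicardium and at 53.8, 67.5 and 75.2 in EPDCs, with overlapping groups. The other *Cdh5* element in all 9 libraries, at -10.0 kb, had a mean of 49.4. The remaining *Pecam1* elements of this kind had means over the 9 libraries of 72.2 at +40.4 kb, 70.5 at +35.5 kb, 62.5 at -47.4 kb, 47.1 at +1.4 kb, 46.7 at -7.7 kb and 45.2 at +75.0 kb. The first *Cdh5* intron of 11.1 kb held 1 element, at +6.6 kb, which was absent from every E17.5 list. The strongest *Emcn* element, at +74.6 kb, had a mean of only 20.5 over the 9 libraries.

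Around the transcription factor genes, *Erg* and *Fli1* had 6 distal elements each in all 9 libraries. The strongest of *Erg*, at +153.8 kb (chr16:95376320-95376820) in an intron, ranked at 81.9, 87.8 and 89.3 in E11.5 epicardium, at 90.1, 90.8 and 90.1 in E17.5 epicardium and at 77.1, 70.3 and 73.0 in EPDCs. It was thus highest at E17.5, the stage at which the *Erg* promoter was lowest, and lower in EPDCs than in all epicardial libraries (difference -14.9, exact permutation p = 0.012, adjusted p = 0.0842). The strongest of *Fli1*, at +140.8 kb (chr9:32400595-32401095) downstream of the gene, ranked at 76.0, 73.2 and 60.9 in E11.5 epicardium, at 61.8, 53.0 and 57.1 in E17.5 epicardium and at 87.2, 87.5 and 90.0 in EPDCs. Here the EPDC libraries lay above the epicardium (difference 24.6, exact permutation p = 0.012, adjusted p = 0.0842). The other *Erg* elements in all 9 libraries had means of 72.0 at +188.8 kb, 71.8 at +107.5 kb, 66.1 at +182.9 kb, 46.4 at +114.3 kb and 39.2 at +90.4 kb, and those of *Fli1* had means of 63.7 at -21.0 kb, 63.1 at +132.3 kb, 59.9 at +97.6 kb, 46.7 at +123.9 kb and 44.9 at +63.2 kb. The first *Fli1* intron, of 64.4 kb, held 16 elements, of which 2 were called in all 9 libraries. *Sox17* had a single distal element, at +4.3 kb in an exon (mean 38.8). The highest element near *Sox18*, at -22.4 kb (mean 93.4), was the promoter of the neighbouring gene *Rgs19*. Of the *Sox18* distal elements 3 were called in all 9 libraries, with means of 83.6 at +12.2 kb, 75.4 at -7.4 kb and 34.8 at +1.1 kb.

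The central 201 bp of 7 distal elements are printed here on the plus strand of mm10, with matches to the AP-1 motif in capitals. They comprise the strongest element, *Tek* +13.4 kb, and 2 picked from those higher in EPDCs, by largest difference (*Emcn* +11.3 kb) and by rank (*Pecam1* -47.4 kb). The last 4 were picked because they held AP-1 letters and were called at E17.5 alone, or were lower and uncalled in EPDCs. The AP-1 motif, bound by dimers of the FOS and JUN families, was searched on both strands as TGACTCA, and 5 further motifs were searched in the same way.
Tek +13.4 kb, chr4:94752565-94752765: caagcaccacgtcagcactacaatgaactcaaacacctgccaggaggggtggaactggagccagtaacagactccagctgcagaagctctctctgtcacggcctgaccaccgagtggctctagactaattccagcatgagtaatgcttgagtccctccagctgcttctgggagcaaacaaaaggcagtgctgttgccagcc
Emcn +11.3 kb, chr3:137352375-137352575: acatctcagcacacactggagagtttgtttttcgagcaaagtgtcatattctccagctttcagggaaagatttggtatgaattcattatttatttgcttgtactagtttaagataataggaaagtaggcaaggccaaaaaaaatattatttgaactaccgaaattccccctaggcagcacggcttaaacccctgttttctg
Pecam1 -47.4 kb, chr11:106762544-106762744: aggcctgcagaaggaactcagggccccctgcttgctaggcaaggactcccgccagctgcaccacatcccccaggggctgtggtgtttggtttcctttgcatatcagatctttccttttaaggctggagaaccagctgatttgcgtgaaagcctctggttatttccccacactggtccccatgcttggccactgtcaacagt
Tek +37.5 kb, chr4:94776735-94776935: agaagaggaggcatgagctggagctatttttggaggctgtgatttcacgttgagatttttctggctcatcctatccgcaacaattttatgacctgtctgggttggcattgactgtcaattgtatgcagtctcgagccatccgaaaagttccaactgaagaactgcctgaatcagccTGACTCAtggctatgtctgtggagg
Pecam1 +48.6 kb, chr11:106666511-106666711: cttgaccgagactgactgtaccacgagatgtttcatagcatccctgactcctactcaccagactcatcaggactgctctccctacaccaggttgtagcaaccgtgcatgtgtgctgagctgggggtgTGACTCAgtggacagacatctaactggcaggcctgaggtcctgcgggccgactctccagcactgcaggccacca
Kdr +39.5 kb, chr5:75938858-75939058: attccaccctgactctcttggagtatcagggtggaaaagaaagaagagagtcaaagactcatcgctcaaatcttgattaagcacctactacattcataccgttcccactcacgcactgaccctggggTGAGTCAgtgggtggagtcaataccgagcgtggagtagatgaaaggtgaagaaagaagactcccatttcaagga
Sox18 -5.6 kb, chr2:181677096-181677296: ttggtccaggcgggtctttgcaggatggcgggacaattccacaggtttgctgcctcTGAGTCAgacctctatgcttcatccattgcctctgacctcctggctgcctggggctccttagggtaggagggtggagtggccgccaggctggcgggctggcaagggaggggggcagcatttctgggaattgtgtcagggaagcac
The first 3 held none of the 6 motifs, and 2 of them, *Emcn* +11.3 kb and *Pecam1* -47.4 kb, ranked higher in EPDCs than in the epicardium. The last 4 held AP-1 letters by choice. Other elements called at E17.5 alone held no AP-1 letters, such as *Erg* +162.8 kb and *Pecam1* -12.2 kb. *Kdr* -9.3 kb, lower and uncalled in EPDCs, held none either. *Tek* +37.5 kb was called at E17.5 alone, and *Pecam1* +48.6 kb, *Kdr* +39.5 kb and *Sox18* -5.6 kb were uncalled in EPDCs. *Kdr* +39.5 kb (chr5:75938708-75939208), an intronic element, ranked at 14.8, 22.8 and 2.1 in E11.5 epicardium and at 39.8, 65.6 and 48.2 in E17.5 epicardium.

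Between the stages, 50 of the 152 distal elements (32.9%) ranked lower in all 3 E17.5 libraries than in all 3 at E11.5 and 16 (10.5%) ranked higher, beside 28.2% lower and 10.8% higher of all 158565 distal elements. The predominance of lower elements depended on the scale. With an equal number of top summits per list, 25 were lower and 21 higher (17.2% and 13.3% of all distal elements), and on the scale of fragments over genome background 39 were lower and 24 higher (22.1% and 16.5% of all). The median difference in percentile was -4.16 at the endothelial genes and -2.90 over all distal elements. Elements lower at E17.5 were found at *Fli1* (14 of 36), *Pecam1* (10 of 31), *Tek* (8 of 19), *Kdr* (6 of 17), *Cdh5* (4 of 9), *Erg* (4 of 21), *Sox18* (2 of 5), *Tie1* (1 of 7) and *Emcn* (1 of 6), and those higher at *Pecam1* and *Kdr* (4 each), *Erg* (3), *Tek* (2), *Cdh5*, *Fli1* and *Sox18* (1 each). By exact permutation, the adjusted p of a stage difference was 0.256 at best, since 3 libraries against 3 cannot go below p = 0.10.

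**Figure D4:**
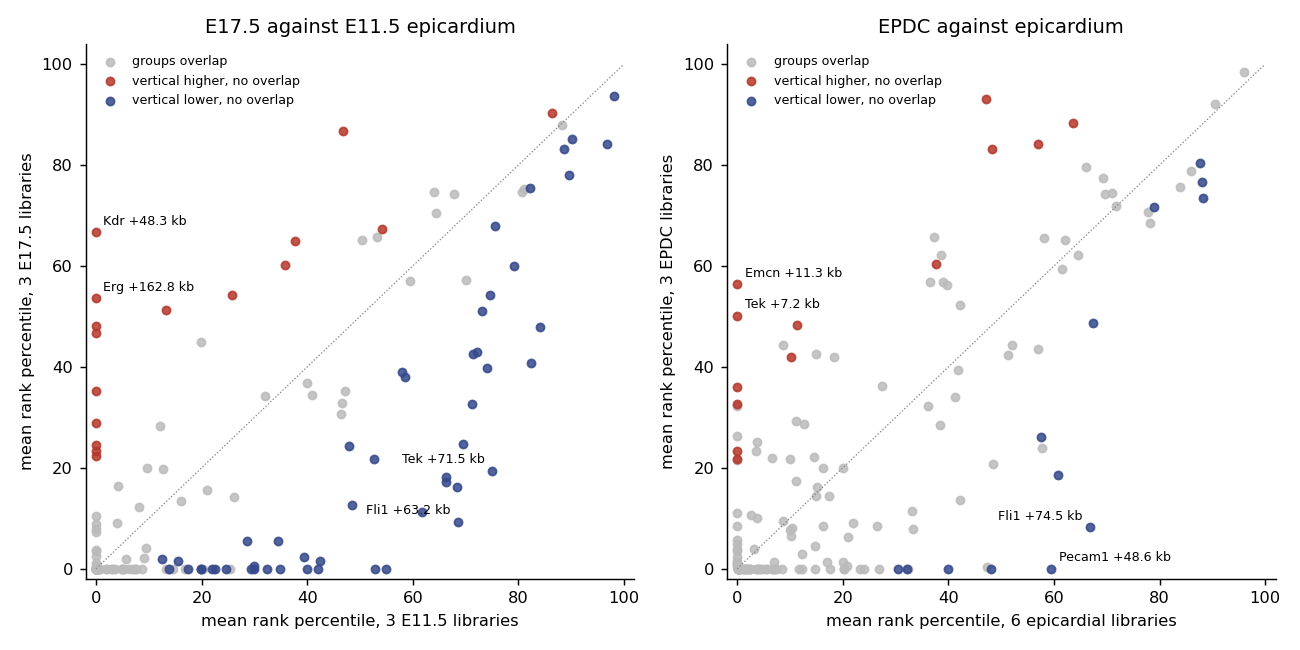
Mean percentile of the 152 distal elements of the endothelial genes, in E11.5 against E17.5 epicardium (left) and in the epicardium against EPDCs (right), both axes from 0 to 100. Coloured points are elements whose groups did not overlap, 16 higher and 50 lower at E17.5, and 13 higher and 13 lower in EPDCs.

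The elements that ranked highest at E17.5 relative to E11.5 lay at *Kdr*, *Erg*, *Tek*, *Pecam1* and *Fli1*. *Kdr* +48.3 kb, downstream of the gene (chr5:75929891-75930391), was uncalled in all 3 E11.5 libraries and ranked at 61.7, 73.3 and 65.2 in E17.5 epicardium on 35 to 84 fragments. *Erg* +162.8 kb (chr16:95367290-95367790) was uncalled at E11.5 and in EPDCs and ranked at 53.3, 50.4 and 57.4 at E17.5. *Tek* +37.5 kb in the first intron ranked at 22.1, 63.8 and 58.5 at E17.5 and was uncalled elsewhere, with the lowest value in the shallowest library. That library, E17.5 replicate 1, had a genome background of 2.07 fragments, against 3.24 to 10.9 in the other 8. *Pecam1* -12.2 kb (chr11:106727184-106727684) likewise ranked at 33.9, 50.1 and 56.1 at E17.5 alone. *Fli1* +74.5 kb (chr9:32466856-32467356) was called at both stages, at 33.4, 52.5 and 54.5 in E11.5 and at 85.2, 88.6 and 86.7 in E17.5 epicardium, a difference of 40.02 percentile points (exact permutation p = 0.10, adjusted p = 0.256).

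The elements that ranked lowest at E17.5 relative to E11.5 lay at *Fli1*, *Tek*, *Cdh5*, *Emcn* and *Kdr*. *Fli1* +63.2 kb (chr9:32478110-32478610) ranked at 63.4, 69.7 and 72.5 at E11.5 and at 7.0, 9.8 and 11.2 at E17.5, a difference of -59.1 within the same gene whose +74.5 kb element ranked higher. *Tek* +71.5 kb (chr4:94810512-94811012) ranked at 68.5, 77.0 and 79.8 at E11.5 and at 0, 31.6 and 26.8 at E17.5. *Cdh5* +6.6 kb (chr8:104107979-104108479), the only element of the first *Cdh5* intron, ranked at 47.5, 51.4 and 65.99 at E11.5, was uncalled in all 3 E17.5 libraries, and ranked at 33.3, 39.8 and 35.8 in EPDCs. *Emcn* +74.6 kb (chr3:137415452-137415952) showed the same order, at 53.4, 43.7 and 61.4 at E11.5, uncalled at E17.5 and between 2.6 and 18.1 in EPDCs. *Kdr* +8.4 kb (chr5:75969804-75970304) ranked at 62.9, 73.8 and 68.5 at E11.5 and was called in 1 E17.5 library, at 48.4. A difference from an uncalled element is a difference from the caller's threshold and not an amount of accessibility.

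**Figure D5:**
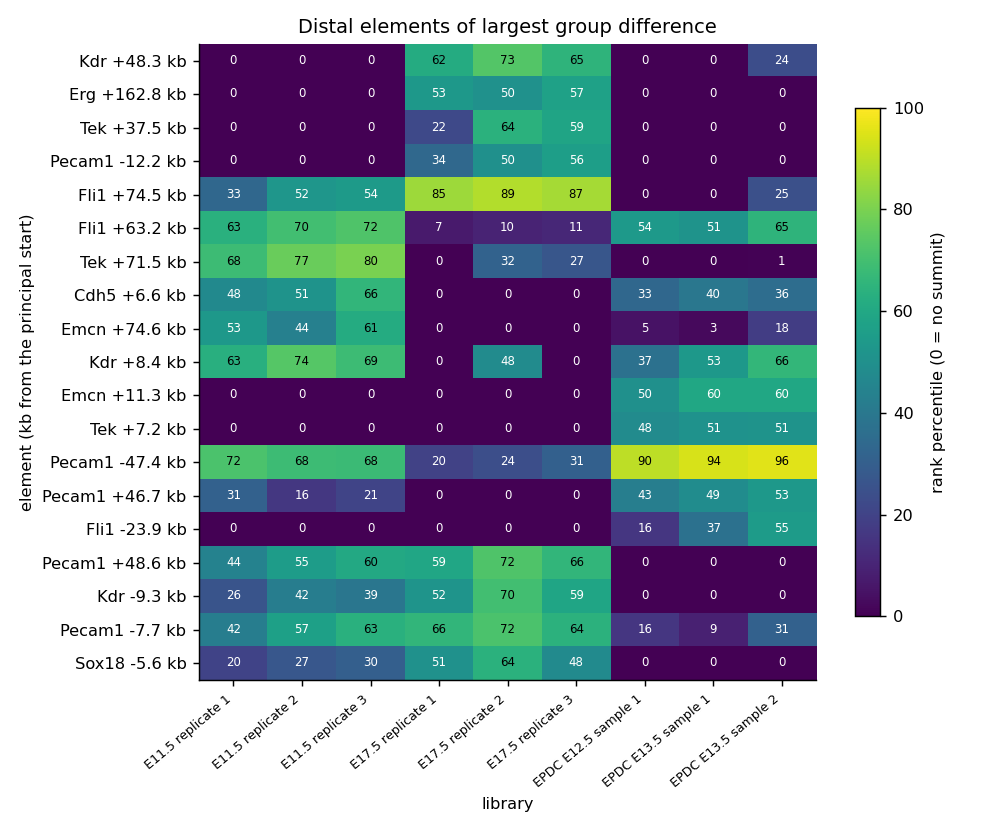
Percentile of the 19 distal elements of largest difference (rows) in each of the 9 libraries (columns, by group), from 0 (no summit called) to 100 on the colour scale. *Emcn* +11.3 kb and *Tek* +7.2 kb carry values in the 3 EPDC columns alone, and *Pecam1* +48.6 kb carries values in the 6 epicardial columns alone.

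In EPDCs, 13 of the 152 distal elements ranked above all 6 epicardial libraries and 13 below (8.55% each), where 9.85% of all distal elements ranked above and 8.04% below. On the fragment scale 12 were above and 20 below, beside 8.03% and 11.8% of all distal elements. The median difference in percentile was -1.51 at the endothelial genes and -1.99 over all distal elements. Higher elements were at *Pecam1* (4), *Erg* and *Fli1* (3 each), *Tie1*, *Tek* and *Emcn* (1 each), and lower ones at *Pecam1* (4), *Kdr* (3), *Tie1* (2), *Tek*, *Erg*, *Fli1* and *Sox18* (1 each). *Emcn* +11.3 kb (chr3:137352225-137352725), in the first *Emcn* intron, ranked at 50.03, 59.6 and 59.7 in EPDCs on 36, 50 and 97 fragments and was uncalled in all 6 epicardial libraries (difference 56.4, exact permutation p = 0.012, adjusted p = 0.0842). *Tek* +7.2 kb (chr4:94746261-94746761), in the first *Tek* intron, ranked at 48.2, 51.1 and 51.3 in EPDCs and was uncalled in the epicardium. It lay beside the stronger *Tek* +6.6 kb, called in all 9 libraries, and had no value with intervals ranked once. *Fli1* -23.9 kb (chr9:32565259-32565759) ranked at 15.8, 37.3 and 54.8 in EPDCs and was uncalled in the epicardium. Genome backgrounds were 4.19, 4.26 and 10.9 fragments in the EPDC libraries and 2.07 to 4.10 in the epicardial libraries, and the part of depth in these calls was not tested.

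The strongest of the elements higher in EPDCs lay at *Pecam1*. *Pecam1* -47.4 kb (chr11:106762394-106762894), inside the neighbouring gene *Milr1*, ranked at 89.9, 94.0 and 95.6 in EPDCs, at 71.7, 68.5 and 68.3 in E11.5 epicardium and at 19.7, 23.9 and 30.7 in E17.5 epicardium. The 3 groups were fully apart, with a difference of 46.0 between EPDCs and the epicardium (exact permutation p = 0.0238, adjusted p = 0.132). *Pecam1* +46.7 kb (chr11:106668331-106668831) showed the same order, at 42.8, 48.6 and 53.3 in EPDCs, at 30.9, 16.2 and 20.6 in E11.5 epicardium and uncalled in E17.5 epicardium.

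In the other direction, *Pecam1* also held the element of largest deficit in EPDCs. *Pecam1* +48.6 kb (chr11:106666361-106666861) in an intron, ranked at 44.2, 55.2 and 60.3 in E11.5 epicardium and at 59.1, 72.5 and 65.9 in E17.5 epicardium, and was uncalled in all 3 EPDC libraries (difference -59.5, exact permutation p = 0.012, adjusted p = 0.0842). *Pecam1* -7.7 kb (chr11:106722731-106723231) ranked between 42.3 and 71.8 in the epicardium and at 15.8, 9.1 and 31.0 in EPDCs. *Kdr* -9.3 kb (chr5:75987542-75988042), upstream of the gene whose promoter was higher in EPDCs, ranked between 26.0 and 69.8 in the epicardium and was uncalled in EPDCs. *Sox18* -5.6 kb (chr2:181676946-181677446) ranked at 20.02, 27.2 and 30.2 at E11.5 and at 50.7, 64.0 and 47.9 at E17.5, and was uncalled in EPDCs. *Fli1* +74.5 kb, the element higher at E17.5, was uncalled in 2 EPDC libraries and ranked at 24.6 in the deepest (difference -58.6, exact permutation p = 0.0238, adjusted p = 0.132).

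Elements confined to 1 group were few. Of the 152 distal elements 6 (3.95%) were called in all 3 E17.5 libraries and in none of the other 6, beside 3.21% of all distal elements, and lay at *Pecam1*, *Cdh5*, *Tek* (2) and *Erg* (2). Another 6 (3.95%, beside 3.39% of all) were called in all 3 EPDC libraries alone, 1 each at *Pecam1*, *Tie1*, *Tek*, *Emcn*, *Erg* and *Fli1*. Of these confined elements, *Tek* +7.2 kb (EPDCs) and *Tek* -15.1 kb (E17.5) lay beside *Tek* +6.6 kb and *Tek* -15.8 kb, which all 9 libraries called. None of the 152 was called in all 3 E11.5 libraries alone (0, beside 4.23% of all distal elements).

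The motif content of the distal elements was close to that of all distal elements for the AP-1 letters, which 24 of 152 (15.8%) and 13.7% held. The ETS letters (ACNGGAAG), for the family of *Erg* and *Fli1*, were in 7 (4.61%, beside 5.55%). The SOX letters (ACAATGG), for the family of *Sox17* and *Sox18*, were in 6 (3.95%, beside 1.96%). GATA letters (AGATAAG) were found in 6 (3.95%, beside 6.62%), TEAD letters (ACATTCC) in 8 (5.26%, beside 8.17%) and forkhead letters (TGTTTAC) in 2 (1.32%, beside 2.90%). By direction, AP-1 letters were in 4 of the 16 elements higher at E17.5 (24.3% of all such elements held them) and in 6 of the 50 lower (10.7% of all such elements). In the EPDC comparison they were in 5 of the 13 elements lower in EPDCs (38.5%, beside 27.6%), which were *Pecam1* +48.6 kb, *Pecam1* +1.4 kb, *Kdr* +39.5 kb, *Tie1* +24.3 kb and *Sox18* -5.6 kb, and in 0 of the 13 higher (beside 7.36%). A match gives the letters only and shows no bound factor.

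Markers of other cells were read at their promoters in the same way. Of 31 further endothelial genes 23 were called in all 9 libraries and 3 (*Rasip1*, *Robo4* and *Vwf*) in none, and the highest were *Ets1* (mean 98.1), *S1pr1* (93.1), *Egfl7* (89.6) and *Cd34* (89.6). Of the 28 called at least once, 12 were lower and 3 higher at E17.5 (25.6% and 10.8% of all promoters), and 4 were higher and 1 lower in EPDCs (6.65% and 9.79% of all promoters). The summed percentile of the 10 endothelial genes ranged from 385 to 414 at E11.5, from 322 to 393 at E17.5 and from 398 to 472 in EPDCs. In E13.5 EPDC samples 1 and 2 the sum includes the *Pecam1* promoter values of 25.5 and 36.7, which rest on the 1 kb limit. Of 12 mesothelial genes 8 were called in all 9 libraries, where 63.8% of all protein-coding genes were, led by *Tbx18* (95.7), *Wt1* (94.6), *Aldh1a2* (92.8) and *Tcf21* (92.5), with sums of 917 to 969, 1021 to 1064 and 584 to 738 in the same order of groups, and 7 of the 12 ranked lower in all EPDC libraries than in the epicardium. The mesothelial marker *Msln*, named after its values were seen, was uncalled in E11.5 epicardium and in EPDCs (mean 81.6 at E17.5). Of 12 mesenchymal genes 11 were called in all 9 libraries, led by *Dcn* (91.7), *Col1a1* (91.1), *Tagln* (89.2) and *Pdgfrb* (87.1), with sums of 824 to 859, 808 to 897 and 923 to 1012. Of 10 cardiomyocyte genes 3 were called in all 9 libraries and *Myh6* in none, with *Actn2* (88.5), *Ryr2* (81.9), *Tnnt2* (77.1) and *Myl7* (34.3) highest and sums of 393 to 409, 305 to 425 and 251 to 320. Of 10 blood genes 6 (*Hba-a1*, *Itga2b*, *Itgam*, *Klf1*, *Ptprc* and *Spi1*) were called in none, and *Cd68* (47.6), *Hbb-bs* (15.1) and *Csf1r* (2.76) had low to middle means. What part endothelial or other cells escaping the gates had in the values of the 10 endothelial genes was not tested.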

How the data were processed

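Bulk ATAC-seq peak lists of 9 libraries were analysed. According to the methods, the authors ran nf-core atacseq (version 2.0) on reads of 40 bp against mm10, removed duplicate, multimapped and mitochondrial reads, and used MACS2 2.2.9.1 to call peaks (q-value limit 0.01), keeping all summits. The deposited lists hold, for each summit, a −log10 p and a −log10 q and a fold enrichment over local background (a ratio), none of them scaled between libraries. The EPDC lists alone retained peaks on mitochondrial or unplaced sequence, and chromosomes 1 to 19, X and Y were used. The lists give no read counts per region, so the authors' count test was not run.

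Each summit was ranked by −log10 p within its list, which removes differences of scale but moves with the number of weak summits called. Fragments at a summit and genome background (2.07 to 10.9 fragments per library) were solved from fold enrichment and −log10 p, and they carry counting error. Elements were windows of 250 bp to each side of a summit, of which the one with the higher depth-normalized score was kept wherever windows overlapped. Genes and starts came from GENCODE M21 on GRCm38.p6, the same build as mm10. A difference was called where groups did not overlap. It was tested by two-sided exact permutation of the mean difference (20 assignments for 3 against 3, 84 for 3 against 6), adjusted by Benjamini-Hochberg over all promoters or all distal elements. With 3 libraries per group, SDs have limited precision.

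Reported were all promoters of the 10 genes, the strongest element of each gene, distal elements called in all 9 libraries, up to 5 elements of largest difference per comparison and direction, and up to 4 genes of highest promoter rank in each list of markers (further endothelial, mesothelial, mesenchymal, cardiomyocyte and blood genes). A blood gene and an element near *Tie1* are not reported here. Values of *Tek* +64.1 kb and *Kdr* +39.5 kb were chosen for display after the data were seen, as were the sequences to print. The members, lists and rules were chosen with earlier results of these data known. Alternatives were equal numbers of top summits, ranks by fold enrichment, log2 of the depth-normalized score, a stricter −log10 q of at least 5, single ranks per interval, other windows, omission of each library, the replicate number as a block and, added after the data were seen, log2 fragments over genome background. Scripts were tested on simulated data. Python 3.11.15, numpy 2.4.6, pandas 2.3.3, scipy 1.17.1 and matplotlib 3.10.9 were used.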

Additional observations from a re-analysis of the deposited data

How the results depend on the processing

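Promoters lower at E17.5, 2 of 7 as reported, were 1 with equal numbers of top summits, 0 with fold enrichment ranks, 1 within 500 bp of a start (where *Erg* had no summit), 1 at the start of the gene record alone, and 2 to 4 on leaving out 1 library, with 4 without E11.5 replicate 2. Promoters higher at E17.5 were 0, and 2 on the fragment scale. On that scale the median of all promoters shifted by 0.52 between stages and by -0.25 in EPDCs, and *Kdr* (0.49) and *Tek* (0.50) lay near the stage shift. Promoters higher in EPDCs, 1 as reported, were 2 with equal numbers, 2 with fold enrichment ranks, 4 against E17.5 alone, 0 on the fragment scale and 1 to 2 on leaving out 1 library (2 without E11.5 replicate 2 and without EPDC E12.5 sample 1). Promoters lower in EPDCs were 0, and 1 against E11.5 alone.

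Distal elements higher at E17.5, 16 as reported, were 17 to 25 on leaving out 1 library, with 25 without E17.5 replicate 1, the shallowest, and those lower, 50 as reported, were 25 with equal numbers (beside 21 higher). Distal elements higher in EPDCs, 13 as reported, were 35 against E17.5 alone and 13 to 24 on leaving out 1 library, with 24 without EPDC E12.5 sample 1. Those lower, 13 as reported, were 36 against E11.5 alone, 22 against E17.5 alone and 20 on the fragment scale, where the median of all distal elements shifted by -0.37 in EPDCs.

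Signs turned for differences whose groups overlapped. Between stages these were *Kdr* (2.02 with equal numbers, 0.81 with fold enrichment ranks, 0.25 on the score scale), *Tek* (2.17 with equal numbers, 0.17 on the score scale), *Sox18* (6.397 with equal numbers, 0.20 with fold enrichment ranks, 0.018 on the fragment scale) and *Fli1* (-6.09 with intervals ranked once, -17.5 at the gene record, -13.3 to 11.7 on leaving out 1 library). In EPDCs they were *Fli1* (-4.72 with fold enrichment ranks, -0.18 on the score scale, -15.5 with intervals ranked once, -0.49 against E17.5 alone, -0.19 on the fragment scale, -5.82 to 6.12 on leaving out 1 library), *Sox18* (-0.20 on the fragment scale), and, against E11.5 alone, *Erg* (-3.27) and *Sox17* (-4.004). The cause of these changes was not tested. Of the elements named for their difference, *Sox18* -5.6 kb overlapped between groups with equal numbers of summits (-23.9). *Tek* +7.2 kb had no value with intervals ranked once. The other elements among the 5 of largest difference per comparison and direction did not overlap between groups under any alternative run.

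The replicate numbers did not pair the libraries. Deviations of E11.5 and E17.5 libraries of the same number correlated at 0.0117, 0.1112 and -0.0934 over 14164 promoters. With the replicate number as a block, 3 promoters were lower (*Sox18*, at -7.26, with *Erg* and *Sox17*, p = 0.25 by exact permutation within pairs, the smallest possible), 0 were higher, and 21 distal elements were higher and 54 lower.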
